A study of Mus musculus with 16 samples.

Results

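Microglia were represented by 9 genes of the 37583 genes listed in the count files. They are established markers of these cells and were chosen by gene symbol with earlier results of these data known: Cx3cr1, P2ry12, Tmem119, Csf1r, Aif1, C1qa, C1qb, C1qc and Trem2. RNA of cortex and cerebellum was sequenced in 4 wild-type mice and in 4 mice labelled as Slc39a8 A391T mutants, with a missense change in a metal ion transporter, all of the strain C57BL/6J. Each mouse gave 1 library per region, 16 libraries in all, and libraries are named here as in the labels, CTX for cortex and CBLM for cerebellum with the number of the mouse. The methods describe unperfused brains of male wild-type mice at 12 weeks of age. The age and sex of the A391T mice and the number of mutant alleles are not given in the sources used here. Whole tissue was used, so the 9 genes are read against the RNA of all cells of a region, and fewer microglia cannot be told apart from less RNA of these genes per microglial cell. The genotype of 4 of the 8 mice differs between the deposited sources. The values that the RPKM table names for the A391T mice CTX461 and CTX462 are those of the count files of the wild-type mice CTX447 and CTX448, and the reverse, and the same holds in cerebellum, so 8 of 16 columns carry the name of the other genotype. The names of the count files are used below, which genotype is right for these 4 mice cannot be told from the files, and the genotype comparisons of the 9 genes are also given under the other naming. The cortex and cerebellum of a mouse stay together under both. Over all genes, the A391T library CBLM445 stood apart, since its chi-square over degrees of freedom was 57.7 to 69.0 against the other libraries of its group, where all other pairs within groups had 2.93 to 31.9.

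Microglia are the resident macrophages of the brain. They are kept alive by signals through the receptor Csf1r, survey the tissue with processes guided in part by the nucleotide receptor P2ry12, and respond to the neuronal chemokine Cx3cl1 through the receptor Cx3cr1. They also make C1q, the starting protein of the classical complement pathway, which tags synapses and debris for removal, and carry Trem2, a lipid-sensing receptor that signals through the adaptor Tyrobp. The density of microglia is known to differ between brain regions.

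Several of these genes can be placed on the genome (build NCBIM37). C1qb, C1qc and C1qa lie in this order on the minus strand of chromosome 4, within 18675 bases, at 136436044 to 136442102, 136445719 to 136448980 and 136451832 to 136454718. P2ry12 lies on chromosome 3 from 59020193 to 59066753 (minus strand) and Trem2 on chromosome 17 from 48485726 to 48493472 (plus strand). The 250 bases before the start of 4 genes are shown because C1qb, C1qc and Trem2 are, with C1qa, the genes whose levels differed least between regions, while P2ry12 differed most. The sequences are those of RefSeq (build GRCm38.p6), read 5′ to 3′ on the strand of the gene, and the capitals mark GAGGAA or its reverse complement TTCCTC, the core of the sites bound by the myeloid transcription factor PU.1:
C1qb, chr4:136886201-136886450, minus strand: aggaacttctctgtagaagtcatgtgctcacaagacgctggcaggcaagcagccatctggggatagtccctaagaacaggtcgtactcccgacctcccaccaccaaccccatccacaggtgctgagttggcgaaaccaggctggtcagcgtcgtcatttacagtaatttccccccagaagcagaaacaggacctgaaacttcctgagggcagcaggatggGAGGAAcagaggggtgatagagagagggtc
C1qc, chr4:136892915-136893164, minus strand: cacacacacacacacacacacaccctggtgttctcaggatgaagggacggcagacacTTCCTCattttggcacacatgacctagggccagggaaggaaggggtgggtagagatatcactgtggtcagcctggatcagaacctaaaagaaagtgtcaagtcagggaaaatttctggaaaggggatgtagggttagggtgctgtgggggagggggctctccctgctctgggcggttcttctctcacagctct
Trem2, chr17:48346151-48346400, plus strand: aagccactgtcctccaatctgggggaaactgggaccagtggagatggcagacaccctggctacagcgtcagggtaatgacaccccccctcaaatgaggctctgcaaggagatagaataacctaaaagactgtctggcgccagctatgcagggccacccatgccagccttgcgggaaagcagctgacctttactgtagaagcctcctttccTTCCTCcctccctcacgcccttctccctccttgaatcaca
P2ry12, chr3:59262986-59263235, minus strand: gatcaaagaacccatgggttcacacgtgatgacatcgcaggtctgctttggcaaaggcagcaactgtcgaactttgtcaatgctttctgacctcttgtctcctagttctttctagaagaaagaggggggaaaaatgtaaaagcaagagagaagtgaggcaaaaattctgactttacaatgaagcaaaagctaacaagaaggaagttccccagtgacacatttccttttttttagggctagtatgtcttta
RefSeq sequences were at hand for 6 of the 9 genes, and 4 of those 6 (Aif1, C1qb, C1qc and Trem2) held GAGGAA on either strand in this window. Of 32851 promoter windows of the same length, 23.25% held it. The 6 letters were not found in the windows of Cx3cr1 and P2ry12, which says nothing of the factor itself. Aif1, whose window held them, had a log2 fold change of −2.27 between regions in wild type, close to −2.32 for P2ry12. A relation of the letters to the region difference was not tested.

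All 9 microglia genes were lower in cerebellum than in cortex of wild-type mice. Levels are given as TPM, for which each count is first divided by the length of its gene and each library is then brought to a common sum, so that genes can be compared with each other. The 9 genes summed to 753 to 911 TPM in the 4 wild-type cortex libraries and to 274 to 285 TPM in the 4 wild-type cerebellum libraries, with means of 797 ± 75.8 and 281 ± 4.80 TPM (SD, n = 4). The sums of A391T mice averaged 774 ± 65.2 TPM for cortex and 266 ± 26.7 TPM for cerebellum (SD, n = 4). The sums of the regions did not overlap in either genotype.

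**Figure D1:**
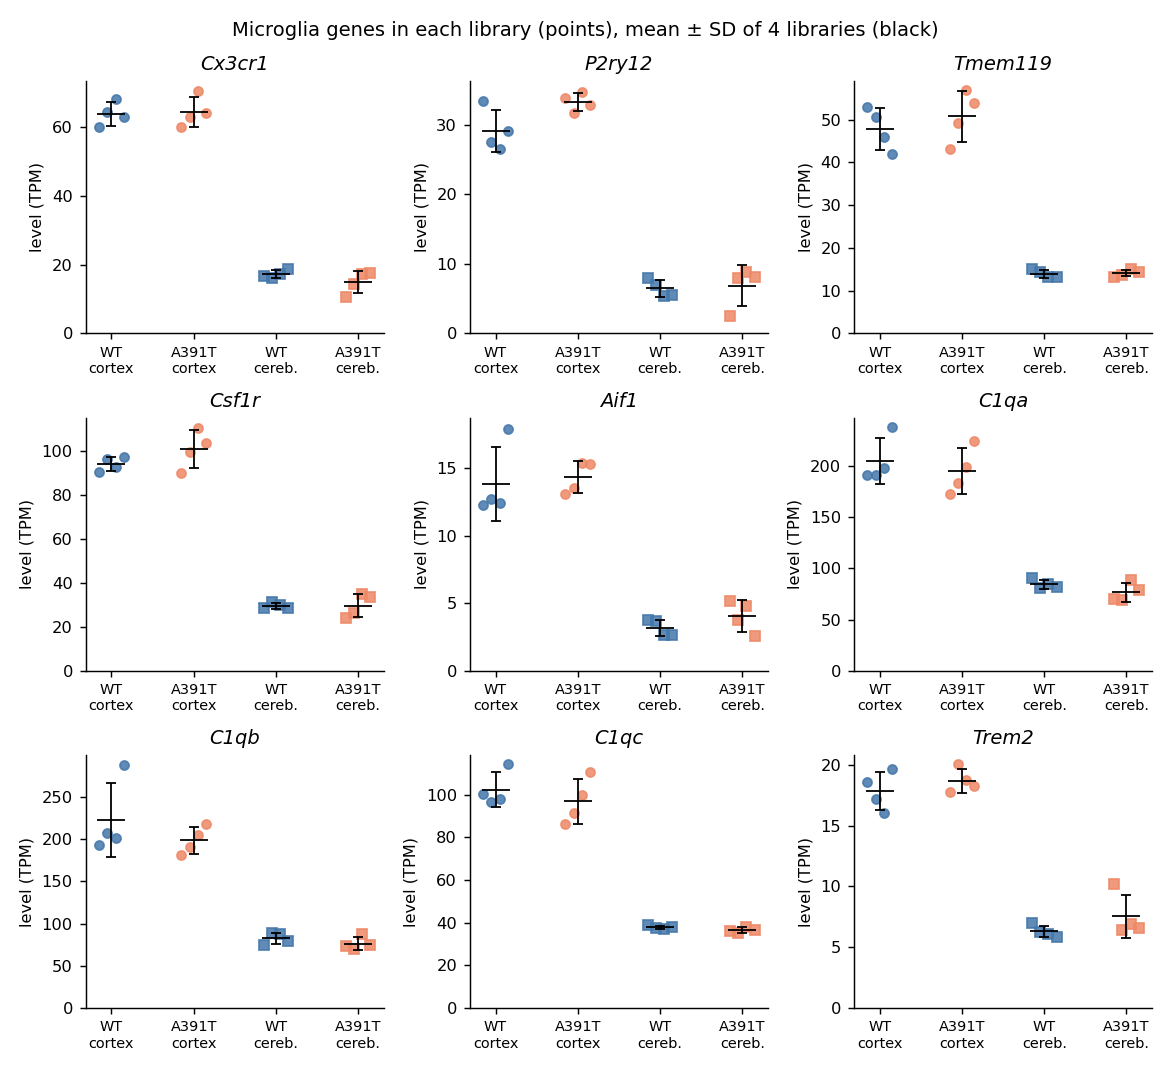
Level of each microglia gene (TPM, linear axis from 0) in the 16 libraries by genotype and region, 1 point per library, with the mean and SD of 4 libraries in black. Every cortex library lies above every cerebellum library for all 9 genes, and genotypes overlap within a region for most genes, with P2ry12 at 2.45 TPM in 1 A391T cerebellum library.

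The receptors and the surface protein Tmem119 are the genes that set resting microglia apart from other brain cells. P2ry12, a receptor for ADP, was at 33.4, 27.5, 26.6 and 29.1 TPM in the wild-type cortex libraries CTX447, CTX448, CTX479 and CTX480 and at 8.03, 6.90, 5.38 and 5.56 TPM in the cerebellum of the same mice. The lowest cortex value was thus well above the highest cerebellum value. P2ry12 had the largest difference of the 9 genes, a log2 fold change of −2.32 (SE 0.14, Benjamini-Hochberg adjusted p = 6.2e-08 in the edgeR quasi-likelihood fit), which is 5.00-fold lower. Cx3cr1, the receptor of Cx3cl1, was at 59.8, 64.3, 68.2 and 62.9 TPM in the same cortex libraries and at 16.6, 16.1, 17.4 and 18.8 TPM in cerebellum. Its values varied little within a region, and the log2 fold change was −2.04 (SE 0.06, adjusted p = 2.9e-10 by edgeR), or 4.12-fold lower. Tmem119, a membrane protein of resting microglia, ranged from 41.9 to 52.9 TPM in wild-type cortex and from 13.1 to 15.1 TPM in the cerebellum, with a log2 fold change of −1.93 (SE 0.10). Csf1r, the receptor of Csf1 and Il34, ranged from 90.6 to 97.3 TPM in cortex and from 28.4 to 31.3 TPM in cerebellum, with a log2 fold change of −1.82 (SE 0.06). The exons of Hmgxb3, on the other strand, overlap 16.66% of the exon bases of Csf1r. Reads were counted without strand, so reads in the overlap may be set aside as ambiguous and missing from the Csf1r counts.

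Aif1, which encodes the actin-binding protein Iba1 used to stain microglia, had the lowest level of the 9 genes. It was at 12.3, 12.7, 12.4 and 18.0 TPM in CTX447, CTX448, CTX479 and CTX480 and at 3.72, 3.69, 2.63 and 2.66 TPM in cerebellum. The cerebellum values rest on 29 to 43 counts per library. The log2 fold change of −2.27 (SE 0.19, adjusted p = 1.0e-06 by edgeR) had the largest standard error of the 9.

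The 3 chains of C1q were the most abundant microglia genes after division by length, together with Csf1r. C1qb was at 194, 208, 202 and 289 TPM in CTX447, CTX448, CTX479 and CTX480 and at 74.3, 88.2, 87.3 and 79.7 TPM in cerebellum. The value of 289 TPM in CTX480 stood above the other 3, as did those of Aif1 and C1qa in the same library. C1qa ranged from 191 to 239 TPM in cortex and from 80.9 to 90.3 TPM in cerebellum, and C1qc from 96.8 to 115 TPM and from 36.8 to 38.8 TPM. The log2 fold changes of the C1q chains were −1.43 for C1qa (SE 0.09), −1.59 for C1qb (SE 0.13) and −1.59 for C1qc (SE 0.07), the smallest differences of the 9 genes. Trem2 was at 18.6, 17.2, 16.1 and 19.6 TPM in the cortex of these mice and at 6.96, 6.27, 6.07 and 5.82 TPM in cerebellum, with a log2 fold change of −1.66 (SE 0.11, adjusted p = 9.9e-08 by edgeR). Its regions did not overlap either, and its place was next to the C1q chains.

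All 9 genes passed an adjusted p of 0.05 and were at least 2-fold lower in wild-type cerebellum, in edgeR and in every alternative setting run, the names of the RPKM table included. Among the 16040 genes tested, 33.1% passed the test as lower and 14.2% were also at least 2-fold lower, while 34.7% passed as higher. The median log2 fold change of the 9 genes was −1.82, against 0.02 over all genes tested, and each of the 9 lay between the 5.41 and the 9.96 percentile of all genes. Scaling by library totals in place of TMM moved the median of all genes to 0.14 and that of the microglia genes to −1.70.

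**Figure D2:**
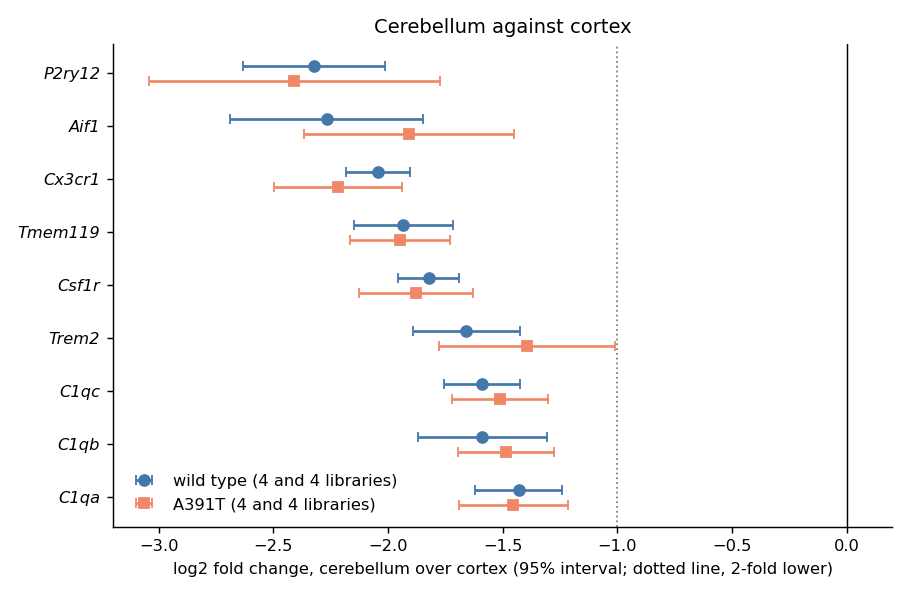
Log2 fold change of each microglia gene in cerebellum over cortex with its 95% interval, in wild-type (circles) and A391T mice (squares), from 4 and 4 libraries each; the dotted line marks 2-fold lower. All points lie left of that line, from −2.32 for P2ry12 to −1.43 for C1qa in wild type.

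The same 9 genes were lower in the cerebellum of A391T mice. Their log2 fold changes ran from −2.41 for P2ry12 (SE 0.28) to −1.40 for Trem2 (SE 0.17), with a median of −1.88 against 0.03 over 16005 genes tested. All 9 passed an adjusted p of 0.05 by edgeR and were at least 2-fold lower, beside 31.3% of all genes that passed as lower, 14.9% that were also 2-fold lower and 31.6% that passed as higher. The intervals of the genotypes overlapped for every gene.

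The order of levels was alike in the groups, with C1qb and C1qa at the top and Aif1 at the bottom. In wild-type cortex the order was C1qb, C1qa, C1qc, Csf1r, Cx3cr1, Tmem119, P2ry12, Trem2 and Aif1, with means of 223, 205, 102, 94.3, 63.8, 47.9, 29.1, 17.9 and 13.8 TPM. The ranges of C1qb and C1qa, of C1qc and Csf1r, and of Trem2 and Aif1 overlapped. Within a library the first of each pair was higher in 4 of 4 libraries, by ratios of 1.08 ± 0.09, 1.09 ± 0.07 and 1.31 ± 0.17 (SD, n = 4). In wild-type cerebellum the means were 84.5 TPM for C1qa, 82.4 for C1qb, 37.8 for C1qc, 29.6 for Csf1r, 17.2 for Cx3cr1, 13.9 for Tmem119, 6.47 for P2ry12, 6.28 for Trem2 and 3.17 for Aif1. There C1qa and C1qb, and P2ry12 and Trem2, overlapped, and each of these pairs changed places between libraries, the first being higher in 2 of 4. P2ry12 was 1.63 ± 0.13 times the level of Trem2 in wild-type cortex and 1.02 ± 0.12 times in wild-type cerebellum (SD, n = 4). The gene lengths behind TPM differ from the annotation most for P2ry12 (4270 bases against 2379) and Trem2 (3234 against 4946). With the lengths of the annotation, P2ry12 would stand at 52.3 TPM above Tmem119 at 50.2, and Trem2 at 11.7 TPM below Aif1 at 15.6 in wild-type cortex.

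Ratios of 2 genes within a library do not depend on how libraries are scaled, and they were compared between regions for all 36 pairs of the 9 genes. In wild type, the ratios did not overlap between regions for 16 of the 36 pairs, beside 63.0% of all pairs of expressed genes. In A391T the count was 19 of 36, beside 61.3% of all pairs. Without the wild-type cortex library CTX480 the wild-type count was 24 of 36, beside 68.9% of all pairs over the same libraries. The 36 pairs reuse 9 genes, and the shares were not compared by a test. None of the 36 pairs passed after Benjamini-Hochberg adjustment of the two-sided exact permutation test over 4 and 4 libraries, whose smallest p is 0.0286, with a smallest adjusted p of 0.0643 in wild type and 0.0541 in A391T.

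Within these pairs, Cx3cr1, P2ry12 and Tmem119 fell more than the C1q chains in 9 of 9 pairs in both genotypes. These 3 genes were grouped after their values were seen, and Aif1 and the receptors Csf1r and Trem2 were left out of the group. Aif1 and Csf1r also fell more than each C1q chain in both genotypes, so the 9 of 9 is not particular to the 3 genes. The place of Trem2 rests on CBLM445: its difference in A391T was −1.40 with that library, smaller than those of C1qa, C1qb and C1qc (−1.45, −1.49 and −1.51), and −1.63 without it. Ratios of the 3 genes to the C1q chains were separated between regions in 4 of 9 pairs in wild type, beside 63.0% of all pairs, and in 9 of 9 in A391T, beside 61.3%. Without CTX480, left out after it was seen to have the highest C1qb value, the wild-type count was 9 of 9, beside 68.9% of all pairs. The ratio of P2ry12 to C1qa, for example, was 1.88-fold lower in cerebellum in wild type (exact permutation p = 0.0286, adjusted p = 0.0643) and 2.13-fold lower in A391T. Among the C1q chains, 1 of 3 pairs was separated in wild type and 0 of 3 in A391T, and among the other 3 genes 1 of 3 in each, all below the 63.0% and 61.3% of all pairs. C1qa was 2.00 ± 0.07 times C1qc in wild-type cortex and 2.24 ± 0.09 times in wild-type cerebellum (SD, n = 4), which did not overlap (exact permutation p = 0.0286, adjusted p = 0.0643). C1qb was at 2.16 ± 0.25 times C1qc in wild-type cortex and 2.19 ± 0.22 times in wild-type cerebellum (SD, n = 4).

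Other listed genes of microglia were lower in cerebellum as well, on lists chosen with earlier results of these data known. All 16 of a list of further microglia genes passed the test as lower in wild type and were at least 2-fold lower, with a median log2 fold change of −1.67, beside 33.1% of all genes lower and 14.2% also 2-fold lower. In A391T all 16 were so, beside 31.3% and 14.9%. Laptm5, a lysosomal membrane protein, fell by 1.62 on the log2 scale (SE 0.06), Siglech, a sialic acid-binding lectin, by 2.25 (SE 0.09) and Itgam, the CD11b chain of complement receptor 3, by 1.87 (SE 0.09) in wild type. Of 7 transcription factors of microglia, 7 were lower in wild type and 5 of them at least 2-fold, beside the same 33.1% and 14.2%. Irf8, a factor of the myeloid lineage, fell by 1.62 (SE 0.12) and Sall1, which marks microglia among macrophages but is also made by other brain cells, by 1.57 (SE 0.13).

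**Figure D3:**
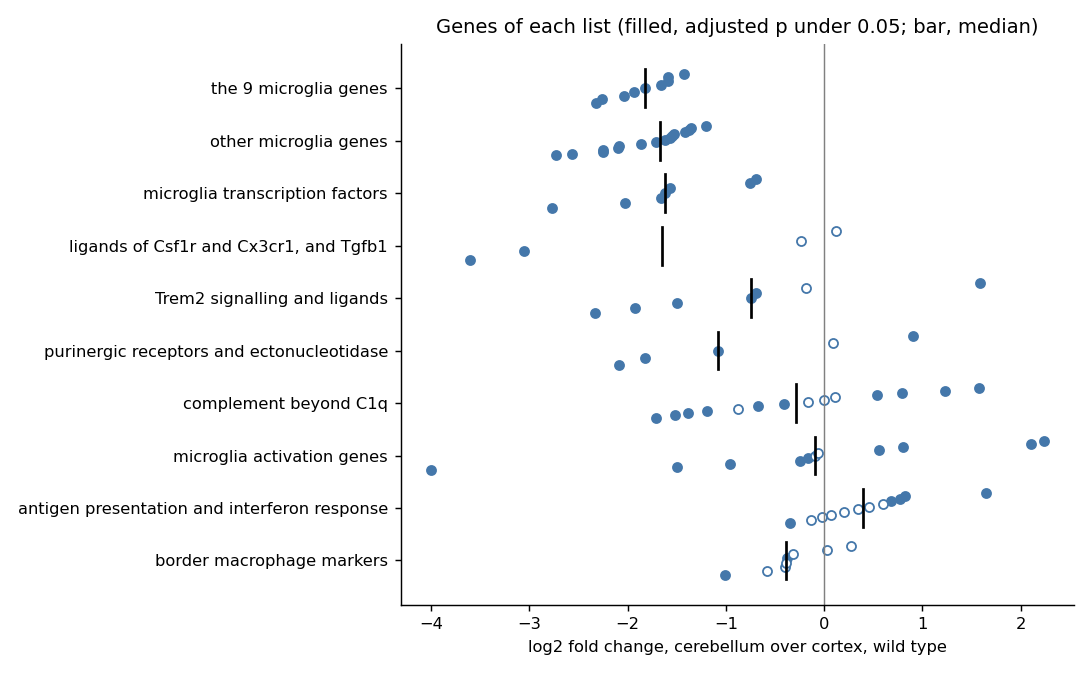
Log2 fold change in wild-type cerebellum over cortex of the genes of each list, 1 point per gene, filled where the adjusted p was under 0.05, with the median as a bar. The 9 genes, the other microglia genes and the transcription factors all lie below 0, whereas complement, activation and antigen presentation genes lie on both sides.

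Of 4 genes listed, 3 ligands of the receptors and Tgfb1, 2 were lower in wild-type cerebellum, beside 33.1% of all genes, and 2 did not pass the test. Cx3cl1, the membrane-bound chemokine that neurons present to Cx3cr1, was at 931 to 1110.5 TPM in the 4 wild-type cortex libraries and at 83.4 to 105 TPM in cerebellum. It fell by 3.61 on the log2 scale in wild type (SE 0.09) and by 3.55 in A391T (SE 0.11). Il34, the neuronal ligand of Csf1r, was at 91.2 to 104.5 TPM in wild-type cortex and at 10.9 to 15.8 TPM in cerebellum, and fell by 3.06 (SE 0.12) and 3.03 (SE 0.12). The estimates for Cx3cl1 and Il34 were larger than those for their receptors Cx3cr1 and Csf1r. Csf1, the other ligand of Csf1r, did not pass the test, with a log2 fold change of 0.12 in wild type (SE 0.07, adjusted p = 0.17 by edgeR) and −0.04 in A391T (SE 0.09, adjusted p = 0.68). Tgfb1, on which the microglial state depends, had −0.24 in wild type (SE 0.11, adjusted p = 0.069 by edgeR).

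Of 8 genes listed for Trem2 signalling and ligands, 7 could be tested, and 5 were lower and 1 higher in wild type, beside 33.1% and 34.7% of all genes. Tyrobp, the adaptor of Trem2, fell from 108 ± 15.1 to 42.3 ± 4.90 TPM (SD, n = 4). Syk, the kinase it recruits, fell by 1.92 on the log2 scale (SE 0.16) and Inpp5d, a lipid phosphatase that restrains the pathway, by 2.33 (SE 0.09). Lyn, a kinase shared with other cells, rose by 1.59 (SE 0.12). Of 6 purinergic genes listed, Adora3 was left out because its symbol has 2 entries, and of the other 5, 3 were lower and 1 higher, beside the same shares of all genes. P2ry13 fell by 2.09 (SE 0.12), P2ry6, a UDP receptor linked to phagocytosis, by 1.83 (SE 0.20) and the ectonucleotidase Entpd1 by 1.08 (SE 0.08), whereas the ATP-gated channel P2rx4 rose by 0.90 (SE 0.06).

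Complement beyond C1q gave calls in both directions. Of 14 genes, 6 were lower and 4 higher in wild type, near the 33.1% and 34.7% of all genes tested, and the median log2 fold change was −0.28. Itgb2, the partner chain of Itgam, fell by 1.39 (SE 0.13), the protease gene C1ra by 1.51 (SE 0.22) and the receptor gene C3ar1 by 1.19 (SE 0.22). The inhibitor genes Serping1 and Cd59a rose by 1.58 (SE 0.12) and 1.23 (SE 0.19), and C2 rose by 0.54 (SE 0.17).

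Of 18 genes listed as marks of activated microglia, 11 could be tested, and 5 were lower and 4 higher in wild type with a median of −0.10. These counts too were not far from the 33.1% and 34.7% of all genes. Lpl, a lipase that neurons make too, fell by 4.00 (SE 0.14) and the chemokine gene Ccl6 by 0.96 (SE 0.24). Cd68, a lysosomal protein of phagocytes, fell from 21.7 ± 0.967 to 8.54 ± 1.15 TPM (SD, n = 4). Spp1 rose by 2.11 (SE 0.13), Lgals3 by 2.24 (SE 0.34) and Cd63 by 0.55 (SE 0.08), none of them limited to microglia. Of 12 genes of antigen presentation and interferon response, 4 were higher, a share like the 34.7% of all genes, and 1 lower, with H2-D1 up by 1.64 (SE 0.08) and Ifit3 by 0.83 (SE 0.20), while B2m fell by 0.34 (SE 0.13). In A391T mice the counts of lower and higher genes were 5 and 1 for Trem2 signalling, 3 and 1 for purinergic genes, 8 and 4 for complement, 3 and 4 for activation and 0 and 5 for antigen presentation and interferon response, beside 31.3% of all genes lower and 31.6% higher. None of the genes on these lists passed the test between genotypes in either region, and over all genes tested the number passing in either region was 0 under the names of the RPKM table.

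Markers of other cell types gave mixed results. Macrophages at the borders of the brain also express Csf1r, Aif1 and C1q. Of 8 testable markers of these cells, 2 were lower in wild-type cerebellum, beside 33.1% of all genes, Stab1, which fell by 1.01 (SE 0.15), and Cd163, which fell by 0.38 (SE 0.16). Their 10 listed markers summed to 27.8 to 35.5 TPM in wild-type cortex and to 22.8 to 29.9 TPM in wild-type cerebellum, with none at 0 in all libraries of a group. Their part in the result was not tested. The 8 listed markers of blood leukocytes summed to 3.57 to 32.5 TPM in wild-type cortex and to 5.36 to 17.4 TPM in cerebellum. Among astrocyte markers 3 of 6 were higher and 1 lower, among neuron markers 2 of 5 higher and 2 lower, and among endothelial markers 2 of 5 lower, beside 34.7% of all genes higher and 33.1% lower. The endothelial genes Slco1c1 and Flt1 fell by 0.63 (SE 0.13) and 0.26 (SE 0.08) in wild type, the neuronal gene Syt1 fell by 1.84 (SE 0.10), and their part in the result was not tested. Markers of the choroid plexus ranged from 53.4 to 8133 TPM between wild-type cerebellum libraries, while the 9 microglia genes there ranged from 274 to 285 TPM.

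No microglia gene passed the test between A391T and wild-type mice. In cortex, 0 of 9 passed an adjusted p of 0.05 by edgeR, beside 0.0126% of 15815 genes tested (2 genes). An unadjusted p under 0.05 was reached by 0 of 9, beside 748 of the 15815. The log2 fold changes ran from −0.19 for C1qb (95% interval −0.46 to 0.09) to 0.17 for P2ry12 (95% interval −0.01 to 0.35), with a median of 0.04 against 0.00 over all genes. P2ry12 was at 33.8, 31.7, 34.7 and 32.8 TPM in the A391T libraries CTX445, CTX446, CTX461 and CTX462, within or just above the wild-type range. C1qb was at 181, 191, 205 and 218 TPM there, and overlapped the wild-type values. Without CTX480 the estimate of C1qb in cortex was −0.02. Without CTX447 the highest estimate was 0.25 for P2ry12, 1 of 9 genes had an unadjusted p under 0.05 and 0 of 9 passed after adjustment. The intervals of all 9 genes in cortex lay between −0.46 and 0.35, so a 2-fold change lay outside each of them. DESeq2 also passed 0 of the 9 genes. Under the names of the RPKM table, the cortex differences had a median of −0.11, and 0 of 9 passed the adjusted test, while C1qa (−0.23, SE 0.08), C1qb (−0.25, SE 0.12) and C1qc (−0.18, SE 0.08) had an unadjusted p under 0.05. The share of all genes at that p was not computed under those names. The direction of the median depended on the names used, and it also went from 0.04 to between −0.01 and −0.00 when CTX447, CTX448, CTX479 or CTX462 was left out under the names of the count files. With only the 4 mice named alike in both sources, the median was −0.12 and 0 of 9 passed.

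**Figure D4:**
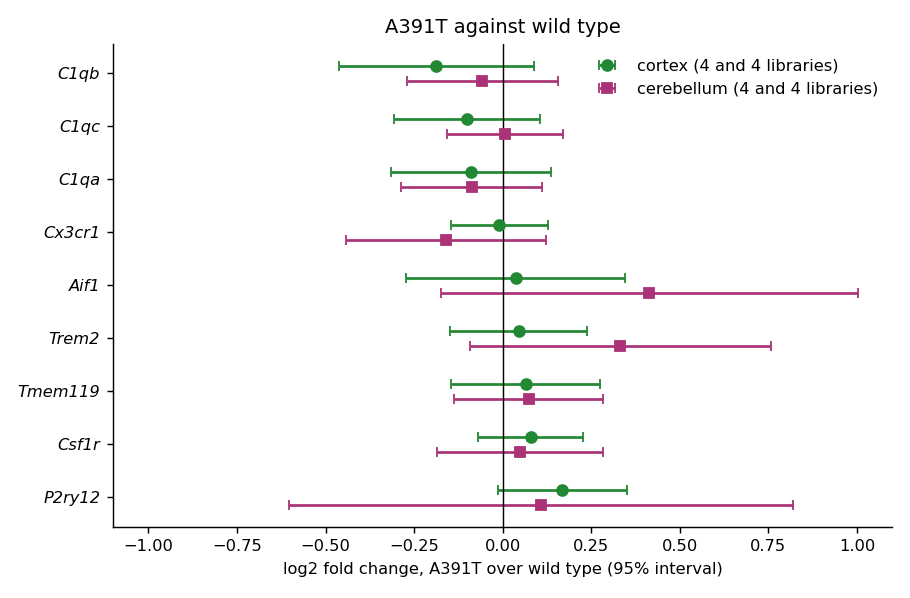
Log2 fold change of each microglia gene in A391T over wild type with its 95% interval, in cortex (circles) and cerebellum (squares), 4 and 4 libraries each. Every interval includes 0, and those of P2ry12, Aif1 and Trem2 in cerebellum are the widest.

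In cerebellum, 0 of 9 genes passed by edgeR, beside 0% of 15668 genes tested, and DESeq2 passed 0. An unadjusted p under 0.05 was reached by 0 of 9, beside 1340 of the 15668. Under the names of the RPKM table the median in cerebellum was −0.04 in place of 0.05, and 0 of 9 passed. Leaving out CBLM461 under the names of the count files also turned it, to −0.03. With only the 4 mice named alike in both sources the median was 0.01 and 0 of 9 passed, while Aif1 (0.88, SE 0.32) and Cx3cr1 (−0.43, SE 0.17) had an unadjusted p under 0.05. The log2 fold changes ran from −0.16 for Cx3cr1 (95% interval −0.44 to 0.12) to 0.41 for Aif1 (95% interval −0.17 to 1.00), with 0.33 for Trem2 (95% interval −0.09 to 0.76) and a median of 0.05. Leaving out single libraries moved Aif1 between 0.22 (without CBLM445) and 0.59 (without CBLM462), and Trem2 between 0.09 (without CBLM445) and 0.42 (without CBLM446). In 2 of these settings, without CBLM445 and without CBLM462, 1 of 9 genes had an unadjusted p under 0.05, and 0 of 9 passed after adjustment. Without CBLM445 that gene was P2ry12, which went from 0.11 to 0.37 (adjusted p = 0.38 by edgeR). Aif1 was at 5.13, 3.73, 4.76 and 2.53 TPM in the A391T libraries CBLM445, CBLM446, CBLM461 and CBLM462, on either side of the wild-type values. The interval of Aif1 reaches a 2-fold rise, so these libraries bound its change only loosely. The interaction of region and genotype passed for 0 of 9 genes, beside 0% of 16589 genes tested, and for 0 by DESeq2. An unadjusted p under 0.05 was reached by 0 of 9, beside 805 of the 16589. The interaction estimates ran from −0.16 for Cx3cr1 to 0.37 for Aif1, with a median of −0.00, and the median was 0.17 with 0 of 9 passing under the names of the RPKM table, where Aif1 had the highest estimate, 0.69 (SE 0.27), and was the 1 gene of 9 with an unadjusted p under 0.05. Slc39a8 itself had 75 to 171 counts per library (1.63 to 3.16 TPM), and since the variant changes the protein and not the amount of RNA by design, these counts do not check the genotype.

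The A391T cerebellum library CBLM445 differed from the rest of its group across all genes, the microglia genes among them. P2ry12 was at 2.45 TPM there against 7.96, 8.84 and 8.16 TPM in CBLM446, CBLM461 and CBLM462, and Trem2 at 10.2 TPM against 6.43, 6.93 and 6.56 TPM. The 2 genes thus moved in opposite directions in this library, while in TPM C1qa, C1qb and C1qc lay within the range of the other 3. Cx3cr1 was also lower, at 10.6 TPM against 14.3 to 17.6 TPM. In TPM, 4 of the 9 genes (44.4%) lay below and 2 (22.2%) above the other 3 libraries, and no share of all genes was computed in TPM. In log2 CPM, Cx3cr1 and P2ry12 lay below them and Aif1, C1qc and Trem2 above. On that scale 6459 (38.9%) lay below and 6628 above of all 16589 expressed genes. Tmem119 was among the 4 in TPM by a small margin, at 13.3 TPM against 13.8 to 15.1 TPM, and neither it nor Csf1r was lower in log2 CPM. The difference of P2ry12 from the mean of the other 3, −1.58 in log2 CPM, was at the 0.850 percentile of all genes. Of the 16 other microglia genes, 10 lay below, 2 above (Ctss and Fcer1g) and 4 within the range of the other 3 libraries in TPM. The summed neuron markers were at 3433 TPM in it against 4618 to 4750 TPM in the other 3, and the red blood cell markers at 593 TPM against 360 to 505 TPM. Their part in these values was not tested. Without this library, the log2 fold change of P2ry12 between regions in A391T was −2.13 and that of Trem2 −1.63, and all 9 genes stayed past the test and 2-fold.

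**Figure D5:**
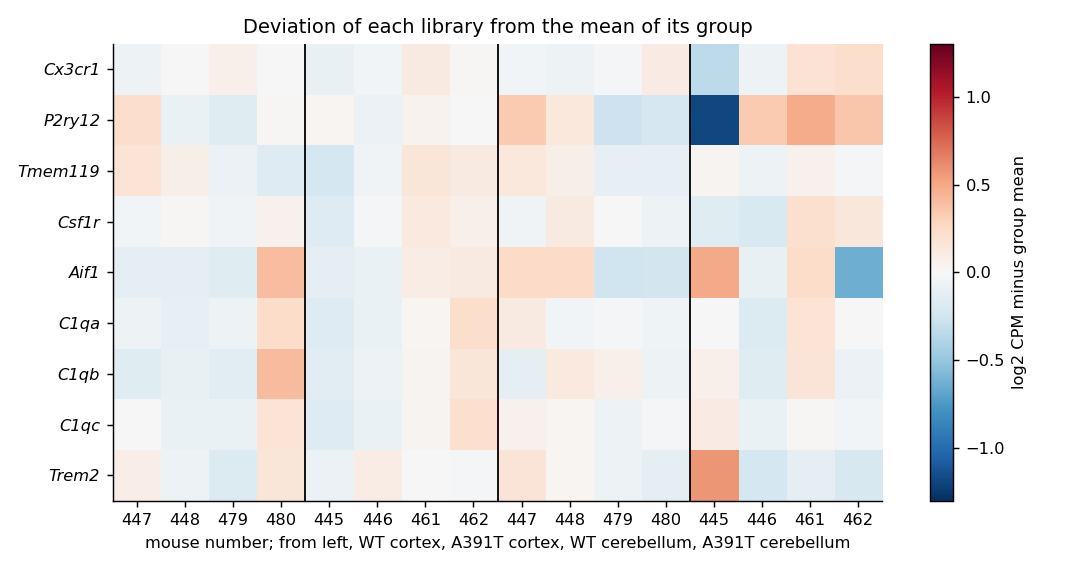
Deviation of each library from the mean of its group (log2 CPM, colour) for the 9 microglia genes (rows) in the 16 libraries (columns, by mouse number). The A391T library CBLM445 is low for P2ry12 and high for Trem2 and Aif1, and the wild-type library CTX480 is high for Aif1 and C1qb.

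Over the 8 mice, no relation between the cortex and the cerebellum level of a microglia gene passed the test on log2 CPM, while on log2 TPM Tmem119 did (r = 0.91, exact permutation p = 0.00283, adjusted over 9 genes 0.0254, rho = 0.90, adjusted 0.0411). Pearson's r of log2 CPM ran from −0.32 for Aif1 to 0.71 for Csf1r. Csf1r had r = 0.71 (two-sided exact permutation p = 0.0509, adjusted over 9 genes 0.305) and Spearman's rho = 0.52 (exact permutation p = 0.197, adjusted 0.442), and r = 0.37 without the 2 mice farthest from the median. Tmem119 had r = 0.63 (exact permutation p = 0.102, adjusted 0.305) and rho = 0.57 (exact permutation p = 0.151, adjusted 0.442), and r = 0.91 without the 2 mice farthest from the median. Within a genotype there were 4 mice, too few for a value of their own.

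Within groups, the 9 genes did not deviate as 1 unit. The correlation of their deviations from the group mean over the 16 libraries ran from −0.75 to 0.86 over the 36 pairs, with a median of 0.26, and from −0.25 to 0.91 with a median of 0.39 without CBLM445. C1qa followed the mean of the other 8 genes most closely, with r = 0.82, and C1qc had 0.69. P2ry12 had −0.09 with and 0.47 without that library, and Trem2 −0.02 and 0.65. These correlations are descriptions over libraries that differ in depth, and may differ in dissection, within a group.

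Outside the 9 genes, those named here among the 10 whose deviations were most like the mean deviation of the 9 over 16 libraries were Cst3 (r = 0.88), Psat1 (0.88), Dbx2 (0.88), Ntsr2 (0.85), Car2 (0.85), Nelf (0.85), Oaf (0.85), Acy3 (0.84) and Gatad1 (0.84). Cst3 encodes the protease inhibitor cystatin C. The median r over 16580 genes was 0.00 and the top 1% began at 0.67. Without CBLM445 the 10 genes held ranks from 3 to 43, and under the names of the RPKM table from 1 to 204, where Ntsr2 had r = 0.66. Cst3 was lower in cerebellum as well, at 1259 against 3099 TPM in cortex as means over both genotypes, whereas Ntsr2 was at 187 TPM in both regions.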

How the data were processed

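The 9 genes and all gene lists were chosen with earlier results of these data known. The authors made polyA-selected directional libraries, sequenced 50 bases, and, by their processing notes, used STAR, the build mm9 and HTSeq. Counts were deposited without normalization, as whole numbers of reads per gene, and were made without regard to strand. The deposited RPKM table gave gene names and lengths here. Of its 16 columns, 8 hold the values of a mouse of the other genotype by the names of the count files (2 wild-type and 2 A391T mice exchanged, in both regions). Names follow the count files, with those of the table as an alternative. Libraries held 20813432 to 30497206 counts on genes.

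The cortex and cerebellum of a mouse share its number and so are paired by animal, although deviations of same-numbered libraries correlated only from −0.10 to 0.02 in A391T and from −0.09 to 0.12 in wild type. Counts were tested with edgeR 4.0.16 (R 4.3.3, limma 3.58.1) in quasi-likelihood fits, with filterByExpr as the filter, TMM as the scaling and p-values adjusted over all genes tested. Standard errors are those implied by the test, and 95% intervals use its degrees of freedom. Genes named were the 9, up to 3 genes per list and direction with the smallest adjusted p in the wild-type region comparison, and the 10 most alike, of which some are not reported here. Genes discussed beyond these (Csf1, Tgfb1, Adora3, Ctss, Fcer1g) were chosen after their values were seen. TPM came from counts and table lengths, and CPM from counts. Alternatives were RLE factors, library totals, DESeq2 1.42.0, other filters, a 2-fold criterion, one model for all libraries, mouse as a block and leaving out each library. The test was checked on simulated counts. Libraries of a group differed beyond counting noise (2.93 to 69.0 for chi-square over its degrees of freedom), so none was a duplicate. Python 3.11.15 with pandas 2.3.3, numpy 2.4.6, scipy 1.17.1 and matplotlib 3.10.9 gave the ratios, correlations and plots. Annotation came from GENCODE M1 (NCBIM37).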

Additional observations from a re-analysis of the deposited data

Results flagged for a closer look

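In groups of 4 libraries, the highest or lowest library was set against the rest by Dixon's criterion for the gap over the range, which chance meets in about 1 of 20 groups, for each of the 9 microglia genes and their sum. It was met in 6 of 40 groups, each time by CTX480 or CBLM445. The genes share the same libraries and the sum is made of the 9 genes. The 40 are thus not independent, and 6 of 40 does not measure an excess over 1 of 20. In the wild-type cortex library CTX480, Aif1 at 18.0 TPM, C1qa at 239 TPM, C1qb at 289 TPM and the sum of the 9 genes at 911 TPM were far above the other 3 libraries. In the A391T cerebellum library CBLM445, P2ry12 at 2.45 TPM was far below and Trem2 at 10.2 TPM far above the other 3. CTX480 also had the highest summed levels of its group for endothelial markers (457 TPM against 317 to 364) and red blood cell markers (440 TPM against 286 to 354), whose part in these values was not tested.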

How the results depend on the processing

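All 9 microglia genes stayed lower in cerebellum at an adjusted p under 0.05 in both genotypes under every alternative run, and 0 of 9 passed in the genotype comparisons and the interaction. With mouse as a replicate block, which the shared animal gives, 9 of 9 passed in wild type, with P2ry12 at −2.33, and in A391T, with P2ry12 at −2.49, and 0 of 9 in the interaction; the block changed no call. Leaving out single libraries gave 9 of 9 each time in the region comparisons and 0 of 9 in the others. With the names of the RPKM table, the median of the 9 genes between genotypes in cortex was −0.11 in place of 0.04, and 3 of 9 had an unadjusted p under 0.05. The share of all genes at an unadjusted p under 0.05 was computed for the main fits only. The interaction had a median of 0.17 in place of −0.00. Over all genes, genotype calls ran from 0 to 14 in cortex (2 in the main test, 14 by DESeq2) and from 0 to 29 in cerebellum (0 and 29), and DESeq2 passed 1 gene for the interaction against 0, while the names of the RPKM table gave 0 in all of these. The summed level in wild-type cerebellum was 269.7 TPM after rescaling by TMM factors, against 281. On log2 TPM in place of log2 CPM, 1 gene, Tmem119, had related levels in cortex and cerebellum over 8 mice (r = 0.91, exact permutation p = 0.00283, adjusted 0.0254), and r = 0.90 without the 2 mice farthest from the median. Pairs with separated ratios numbered 11 of 36 in wild type and 20 of 36 in A391T under the table's names, for which the share of all pairs was not computed. Settings with the table's names and without CBLM445, with annotation lengths, and for pair ratios were chosen after seeing the data. With 4 libraries a group and 27 to 71 counts of Aif1 in A391T cerebellum, small genotype differences cannot be detected.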
